A study of Mus musculus with 43 samples.

Results

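The receptors and transporters that set the response of a neuron to GABA were followed through the development of upper-layer cortical neurons in WT, Cux1 KO and Cux2 KO mice. The 7 genes comprised 4 that encode alpha subunits of the GABA-A receptor (Gabra2, Gabra3, Gabra4 and Gabra5), Gabrd, which encodes the delta subunit, and the chloride cotransporter genes Slc12a2, for the importer NKCC1, and Slc12a5, for the exporter KCC2. They were picked from the count table by symbol and not by a rule on their values, though with earlier results of these data known. They make up 7 of its 56980 genes.

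All libraries came from C57BL/6JRccHsd mice whose somatosensory cortex was electroporated in utero with a GFP plasmid when L2/3 neurons are born, and GFP+ cells were sorted by FACS before RNA-seq. WT libraries numbered 4 per sex at E19, 3 per sex at P4, and 2 from females and 3 from males at P7. Cux2 KO libraries, of the germline Cux2-/- line, numbered 4 per sex at E19 and 3 per sex at P4. Cux1 KO libraries at E19, 4 per sex, carried the germline Cux1ΔC/ΔC allele, which is lethal around birth. The 2 Cux1 KO libraries at P4, both from males, came instead from Cux1f/Δ23 mice that received pCALNL-GFP and pCAG-iCre, so that CRE recombined the floxed allele in the targeted cells. Since CRE was given to these Cux1 KO mice alone, its effect and that of the deletion cannot be told apart, and E19 libraries were sequenced in another round than P4 and P7 libraries, so stage and round cannot be told apart either. The labels do not say how many animals stand behind a library, and the p-values given here measure the spread between libraries, which may be technical.

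GABA-A receptors are chloride channels assembled from alpha, beta and gamma subunits or, mostly outside synapses, with a delta subunit in place of gamma. The alpha subunit sets much of the kinetics and pharmacology of the channel, and alpha subunits replace each other as the cortex matures. Whether GABA depolarizes or hyperpolarizes depends on intracellular chloride, which NKCC1 raises and KCC2 lowers, and the Slc12a5 to Slc12a2 ratio is widely used as a sign of the maturing chloride gradient.

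The alpha subunit genes lie in clusters with beta and gamma subunit genes. In GRCm39, Gabra2 (ENSMUSG00000000560, chr5:71114573-71253662) and Gabra4 (ENSMUSG00000029211, chr5:71721738-71815722) lie on the minus strand between Gabrg1 and Gabrb1. Gabra5 (ENSMUSG00000055078, chr7:57055164-57240831) lies on the minus strand next to Gabrg3, and Gabra3 (ENSMUSG00000031343, chrX:71476275-71700723) lies on the minus strand between Gabre and Gabrq. Gabrd (ENSMUSG00000029054, chr4:155469407-155482872) and Slc12a5 (ENSMUSG00000017740, chr2:164802722-164841668) lie apart from these clusters, as does Slc12a2. Exons on the opposite strand that overlap the members' exons include 101 bases with Gabra4 (Gabrb1), 148 bases with Gabra5 (Gm9962) and 281 bases with Slc12a5 (Ncoa5). Reads in these stretches cannot be assigned to either gene with certainty, because the strand setting of the counting is not stated.

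The promoters of 3 alpha subunit genes are shown because Gabra2 and Gabra4, neighbours on chromosome 5, had opposite signs of difference between E19 and P4, and because Gabra5 had the largest difference at P4 when the KO groups were compared with each other. Each is the 250 bases before the gene's start in RefSeq (GRCm38.p6, minus strand, written 5′ to 3′), at chr5:71095850-71096099 for Gabra2, chr5:71658309-71658558 for Gabra4 and chr7:57510060-57510309 for Gabra5. Capitals mark GC boxes (GGGCGG, or CCGCCC on the other strand) and CCAAT boxes (CCAAT, or ATTGG on the other strand).
Gabra2: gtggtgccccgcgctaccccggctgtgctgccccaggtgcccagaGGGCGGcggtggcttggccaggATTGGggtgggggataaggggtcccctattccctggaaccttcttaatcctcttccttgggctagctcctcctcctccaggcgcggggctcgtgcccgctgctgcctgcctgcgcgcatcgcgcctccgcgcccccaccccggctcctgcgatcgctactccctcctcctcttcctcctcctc
Gabra4: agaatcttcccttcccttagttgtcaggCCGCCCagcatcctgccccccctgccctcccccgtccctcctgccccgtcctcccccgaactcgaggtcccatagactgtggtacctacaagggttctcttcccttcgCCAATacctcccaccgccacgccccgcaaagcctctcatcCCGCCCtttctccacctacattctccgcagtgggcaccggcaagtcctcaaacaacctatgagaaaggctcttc
Gabra5: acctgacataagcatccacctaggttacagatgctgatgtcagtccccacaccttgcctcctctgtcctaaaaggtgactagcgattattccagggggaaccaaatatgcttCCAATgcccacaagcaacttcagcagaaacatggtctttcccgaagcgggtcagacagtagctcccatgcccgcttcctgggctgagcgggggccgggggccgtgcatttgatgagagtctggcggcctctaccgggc
The 3 windows hold 70% G and C for Gabra2, 61.2% for Gabra4 and 56.4% for Gabra5. Gabra4 has 2 GC boxes and Gabra2 has 1, a motif found in 32.7% of the 32851 promoters of this length, and each of the 3 has 1 CCAAT box, found in 33.8%. The core sequences that CUX proteins recognize, ATCAAT and ATCGAT, were searched on both strands, and neither they nor the boxes contain one another. They are absent from these windows and from those of Gabra3 and Slc12a5. They occur in 6.72% and 0.728% of all promoters, and their absence from these bases says nothing about binding elsewhere in the genes.

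A library of E19 held 13321095 to 20715732 counts, a library of P4 held 19499125 to 60559585, and a library of P7 held 15312029 to 27633827. Each library held at least 1 count of 17049 to 24252 genes. Levels are given as TMM-normalized CPM, the reads of a gene scaled to a common library size. A gene is called where edgeR's quasi-likelihood test gave a Benjamini-Hochberg adjusted p under 0.05 and the log2 fold change was beyond 0.5 in either direction for comparisons within E19, or beyond 1 for all others. Cux1 at E19 was at 308 CPM ± 22.4 (SD, n = 4) in Cux1 KO females and 415 ± 61.1 in WT females, and Cux2 at 346 ± 54 in Cux2 KO females and 448 ± 57.5 in WT females, and the males had the same order of means. At P4 the order was the opposite, with Cux1 at 132 ± 67.1 CPM (n = 2) in Cux1 KO males and 119 ± 36.9 (n = 3) in WT males, and Cux2 at 38 ± 12 and 44.5 ± 15.2 in Cux2 KO females and males and 33.5 ± 4.82 and 38.2 ± 10 in WT. Gene-level counts include exons outside the deleted parts, so these levels do not check the labels. The markers of upper-layer excitatory neurons were high at E19 and low later. In WT libraries the summed level of the 9 markers lay between 3820 and 5350 CPM before birth (E19), then between 905 and 1060 (P4), then between 501 and 706 (P7). Slc17a7, the vesicular glutamate transporter of cortical excitatory neurons, was at 4.48 to 14.7 CPM in WT at E19. It was at 0 to 0.312 at P4 and at 0 to 1.65 at P7, so libraries labelled as excitatory neurons held few of these defining transcripts after birth. The 10 astrocyte and radial glia markers summed to 1830 to 2610 CPM in WT at E19, 4240 to 6270 at P4 and 7980 to 11100 at P7. The word neurons is used below as a label of the libraries, and which cells their RNA came from was not tested.

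Between E19 and P4, the most abundant mRNA of the 4 alpha subunit genes changed from Gabra2 to Gabra4, and Slc12a5 fell to near 0. In WT neurons 2 of the 6 members that passed the filter on low counts were called, Gabra4 higher and Slc12a5 lower at P4, where 46.3% of all genes tested were called (22.6% higher and 23.7% lower). In Cux2 KO neurons 4 of 7 members were called, Gabra3 and Gabra4 higher and Gabrd and Slc12a5 lower (Gabrd entered the test through its E19 libraries alone, which fixed its direction), where 47.9% of all genes were called (23.3% higher and 24.6% lower). The members' shares are thus near those of all genes, and the median log2 difference over the members was -0.61 in WT and -0.43 in Cux2 KO neurons, against 0.03 and 0.05 over all genes. No member's stage difference differed between the genotypes in the test of the interaction (0 of 7 members, smallest adjusted p 0.784, none at an unadjusted p under 0.05, none with DESeq2, and 0.191% of all genes).

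Gabra4, whose product often forms extrasynaptic receptors in the forebrain, rose in both genotypes tested. Across the 8 WT libraries at E19 its lowest, median and highest levels were 6.85, 12 and 14.3 CPM, and across the 6 at P4 they were 40.9, 59.4 and 98.3. Across the Cux2 KO libraries they were 9.78, 12.9 and 15.2 CPM at E19 and 70.4, 87.4 and 105 at P4. No library of E19 reached the lowest library of P4 in either genotype, and such a lack of overlap held for 47.9% of all genes in WT and 50.9% in Cux2 KO neurons. The log2 difference was 2.43 ± 0.209 (SE) in WT neurons (edgeR adjusted p = 9.11e-08) and 2.78 ± 0.122 in Cux2 KO neurons (adjusted p = 3.27e-11). The Cux1 KO libraries, not tested between stages because the alleles differ, lay between 11.9 and 18 CPM at E19 and at 97.6 and 83.9 at P4.

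Gabra2, the alpha subunit gene that lies next to Gabra4 and is prominent in the immature cortex, had the opposite sign. In WT libraries its lowest, median and highest levels were 60.3, 74.3 and 108 CPM at E19 and 21.5, 39.5 and 64.8 at P4. A single WT library at P4, male replicate 3 at 64.8 CPM, reached the range of E19. The log2 difference of -0.95 ± 0.21 had an adjusted p of 0.000922 but did not pass the fold threshold, and without male replicate 3 of P4 it was -1.16 (adjusted p = 5.85e-05) and passed, as it did without male replicate 4 of E19 or female replicate 1 of P4. In Cux2 KO neurons the range went from 38.6 to 82.4 CPM at E19 and from 23.3 to 43.7 at P4, with a log2 difference of -0.69 ± 0.21 (adjusted p = 0.00781), also under the fold threshold.

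Gabra3, an X-linked gene for an alpha subunit of developing circuits, was higher at P4 on average and spread widely among libraries. WT levels had a lowest, median and highest value of 3.98, 8.79 and 20.5 CPM at E19 and 11.9, 19.6 and 29.6 at P4. In Cux2 KO libraries these values were 7.77, 12.4 and 22 CPM at E19 and 15.3, 23.1 and 61.8 at P4. Stages overlapped in both genotypes. The log2 difference was 0.97 ± 0.31 in WT neurons (adjusted p = 0.0116, under the fold threshold) and 1.15 ± 0.315 in Cux2 KO neurons (adjusted p = 0.00408). The Cux2 KO call depended on single libraries, with a log2 difference of 0.93 without female replicate 3 of P4 and 0.85 without male replicate 2. The WT difference passed the fold threshold without female replicate 4 or male replicate 1 or 3 of E19, and without female replicate 3 or male replicate 2 or 3 of P4.

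Gabra5, which encodes the alpha subunit of slow, largely extrasynaptic inhibition, was low in WT neurons at every stage. Its levels ran from 2.21 to 15.5 CPM in WT libraries at E19 and from 0.026 to 9.91 at P4, with 1 count in the lowest P4 library. Stages overlapped, and neither the WT difference of -0.84 ± 0.695 (adjusted p = 0.294) nor the Cux2 KO difference of 0.36 ± 0.424 (adjusted p = 0.458) passed.

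Gabrd, known for tonic inhibition in mature forebrain neurons, was near the limit of detection throughout. The 24 libraries at E19 held 0 to 27 counts (0 to 1.67 CPM), with 0 counts in 4 of them, and the highest level was that of WT male replicate 3. After birth 18 of the 19 libraries held 0 counts, and the other, Cux2 KO male replicate 2 of P4, held 10 counts (0.154 CPM). All 8 Cux2 KO libraries of E19, at 0.348 to 1.56 CPM, lay above all 6 of P4, and the fitted log2 difference was -4.88 ± 0.947, whose size depends on the prior count. The gene passed the filter on low counts only through its E19 libraries, which fixed the direction of this difference, so the call gives no support. The call was lost without female replicate 1, 2 or 4 or male replicate 3 or 4 of E19, where the gene no longer passed the filter on low counts. In WT neurons the gene did not pass the filter on low counts, and was at 0 in all 6 libraries of P4 and in 2 of 8 at E19.

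Slc12a2 (ENSMUSG00000024597, chr18:58011164-58080812 in GRCm39), the importer gene, stayed at 34.3 CPM or more in every library other than the 2 Cux1 KO libraries of P4. In WT libraries its lowest, median and highest levels were 55.1, 65.7 and 71.5 CPM at E19 and 34.3, 48.7 and 63.9 at P4, and in Cux2 KO libraries 54.6, 67.3 and 74.3 CPM at E19 and 39, 48.9 and 57.6 at P4. The P4 libraries lay mostly below those of E19, with overlap. The log2 differences of -0.38 ± 0.131 in WT (adjusted p = 0.0189) and -0.43 ± 0.108 in Cux2 KO neurons (adjusted p = 0.00207) were under the fold threshold.

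Slc12a5, the gene of the neuronal chloride exporter, fell between E19 and P4. In WT libraries its lowest, median and highest levels were 3.34, 6.8 and 13.7 CPM at E19 and 0, 0.771 and 2.01 at P4, and in Cux2 KO libraries 5.18, 9.31 and 15.1 CPM at E19 and 0, 0.653 and 3.11 at P4. No P4 library of either genotype reached its lowest library of E19. WT male replicates 2 and 3 and Cux2 KO female replicate 2 of P4 held 0 counts, which allows a level of up to 0.0779, 0.0469 and 0.104 CPM (3 counts, counting error only). The log2 difference was -3.55 ± 0.939 in WT (adjusted p = 0.00358) and -2.97 ± 0.728 in Cux2 KO neurons (adjusted p = 0.0018).

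**Figure D1:**
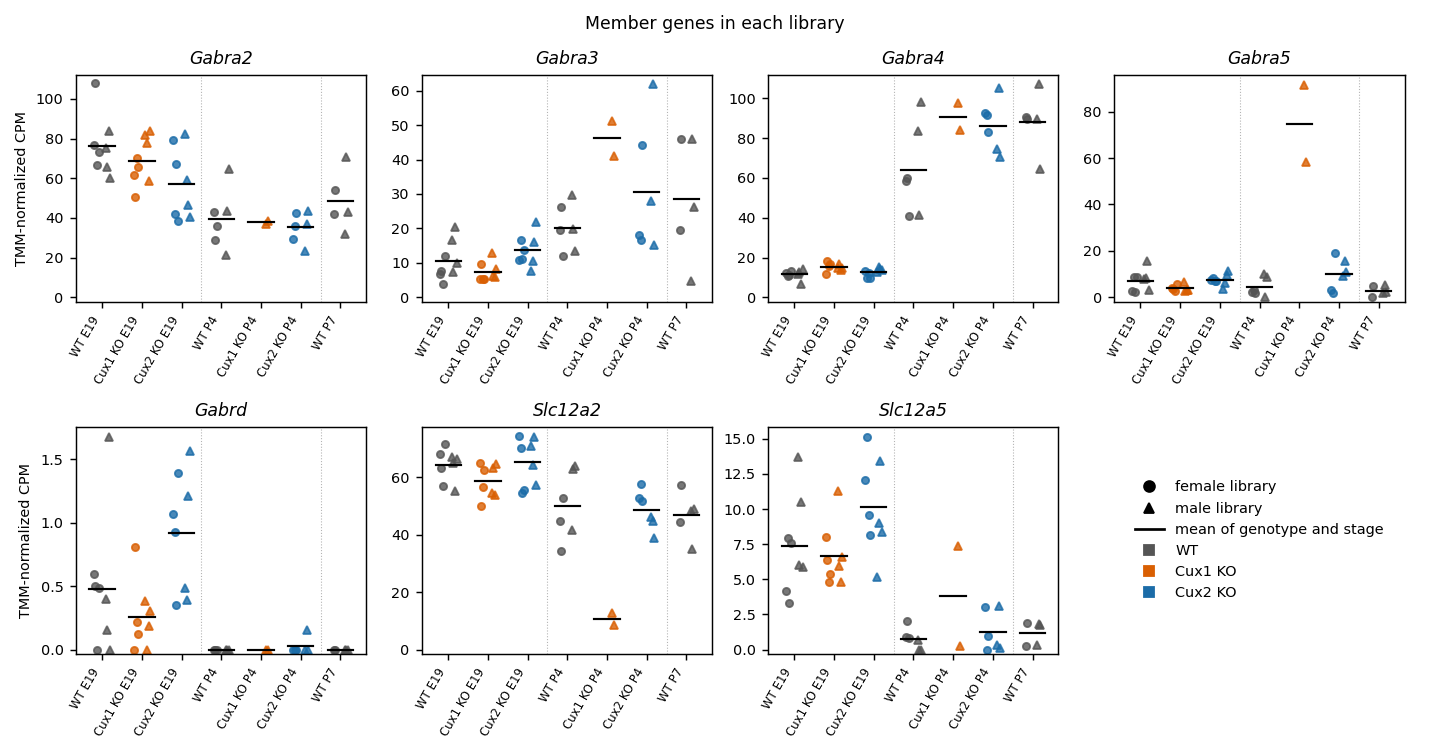
Level of each member (TMM-normalized CPM, linear axes that differ between panels) in every library, by genotype and stage, with circles for females, triangles for males and a line at the mean. Gabra4 sits between 6.85 and 18 CPM in all 24 libraries at E19 and between 40.9 and 107 after birth, while Slc12a5 sits between 3.34 and 15.1 at E19 and between 0 and 7.34 after birth.

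Markers of other cells moved with these stage differences. Of the upper-layer excitatory markers 7 of 9 were lower and 1 was higher at P4 in WT neurons, including Neurod2 (533 to 797 CPM at E19, 12.4 to 28.8 at P4). Of the astrocyte and radial glia markers 6 of 10 were higher and 2 lower, with the astrocyte water channel gene Aqp4 at 12.4 to 27.6 CPM at E19 and 220 to 973 at P4. Of the oligodendrocyte lineage markers 4 of 7 were higher, with the myelin gene Mbp at 10.7 to 17.3 CPM at E19 and 33.2 to 616 at P4, and 6 of 6 endothelial markers were higher. Their part in the differences of the GABA-A receptor and cotransporter genes was not tested. In bulk libraries, fewer cells of a type and less RNA per cell cannot be told apart.

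Between P4 and P7 no member was called in WT neurons (0 of 6 with edgeR, none at an unadjusted p under 0.05, none with DESeq2, against 2.29% of all genes with edgeR). Gabra4 was at 64.4 to 107 CPM at P7, Gabra2 at 31.8 to 70.8, Slc12a2 at 35.1 to 57.2 and Slc12a5 at 0.259 to 1.91, each overlapping the range of P4. Gabra3 spanned 4.79 to 46 CPM over the 5 libraries of P7 (SD 17.7 around a mean of 28.4).

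Per kilobase of exon, which allows genes to be compared, Gabra2 led in WT neurons at E19 with a mean of 8.5 CPM per kilobase, above Slc12a2 (5.05) in 8 of 8 libraries. Gabra3 (1.53), Gabra4 (1.16), Slc12a5 (0.888) and Gabra5 (0.796) followed, and neighbours in this order did not keep it in every library, with Gabra3 above Gabra4 in 5 of 8 and Slc12a5 above Gabra5 in 4 of 8. Gabrd was last at 0.0759. In WT neurons at P4 Gabra4 (6.34 CPM per kilobase) was above Gabra2 (4.42) in 5 of 6 libraries. Gabra2, Slc12a2 (3.94) and Gabra3 (2.9) were not separated there, with Gabra2 above Slc12a2 in 3 of 6 libraries and Slc12a2 above Gabra3 in 4 of 6. Gabra5 (0.479) and Slc12a5 (0.0899) followed, and Gabrd was last at 0 counts in all 6 libraries. At P7 Gabra4 (8.78) lay above Gabra2 (5.39) in 5 of 5 libraries.

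Expressed as shares of the summed mRNA of Gabra2, Gabra3, Gabra4 and Gabra5 per kilobase, Gabra2 made up 71.1% ± 6.48 (SD, n = 8) in WT neurons at E19, 31.9% ± 10.3 (n = 6) at P4 and 28.9% ± 2.09 (n = 5) at P7. Gabra4 made up 10.1% ± 3.04 at E19, 43.9% ± 6.1 at P4 and 49% ± 11.5 at P7. Gabra3 went from 12.5% ± 5.19 to 21.1% ± 6.93 and 20.6% ± 9.8. Gabra5 stayed at 6.32% or less on average in WT neurons. The Cux1 KO libraries of P4 stood apart, with Gabra5 at 25.8% and 32.3% of this sum against 0.0244% to 6.82% in WT and 1.16% to 9.79% in Cux2 KO libraries of P4. These shares are descriptive and were not tested.

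**Figure D2:**
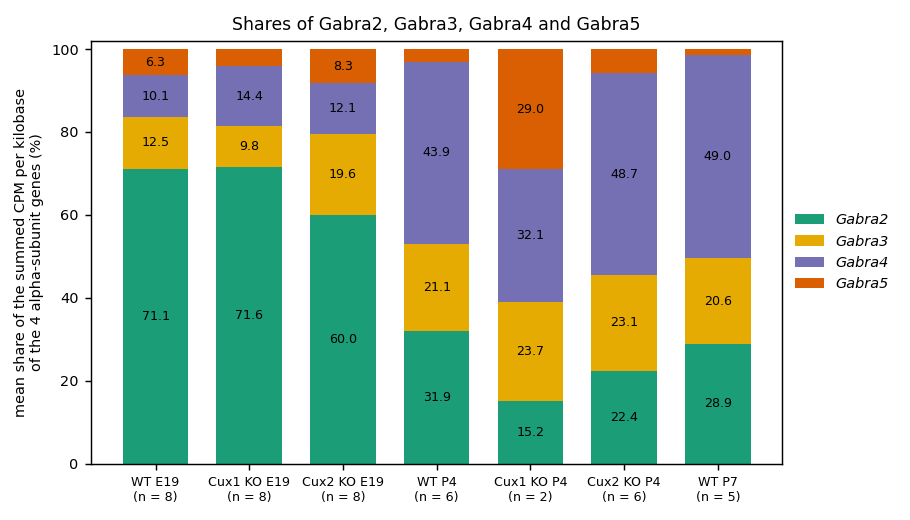
Mean share (%) of each gene in the summed mRNA of Gabra2, Gabra3, Gabra4 and Gabra5, in CPM per kilobase of exon, for each genotype and stage, with the number of libraries under each bar. Gabra2 takes 71.1% in WT at E19 and Gabra4 43.9% in WT at P4, and Gabra5 takes 29% in the 2 Cux1 KO libraries of P4.

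Stage differences within each cluster are given as values, and no difference between neighbours was tested. On chromosome 5, Gabrg1, for a gamma subunit known from glia and some neurons, rose by 4.12 ± 0.26 on the log2 scale in WT neurons (adjusted p = 3.8e-09) and Gabrb1 by 2.66 ± 0.176 (adjusted p = 6.17e-09), as Gabra4 did, while Gabra2 between them was at -0.95. On chromosome 7, Gabrg3 rose by 1.65 ± 0.386 (adjusted p = 0.00148), with Gabra5 next to it at -0.84. On chromosome X, Gabra3 had positive log2 differences with wide errors in its neighbours Gabre and Gabrq, of which Gabrq was called in Cux2 KO neurons (2.56 ± 0.681, adjusted p = 0.00332). Gabrb1 and Gabra4 share 101 bases of exon, so a small part of their values may be shared reads.

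**Figure D3:**
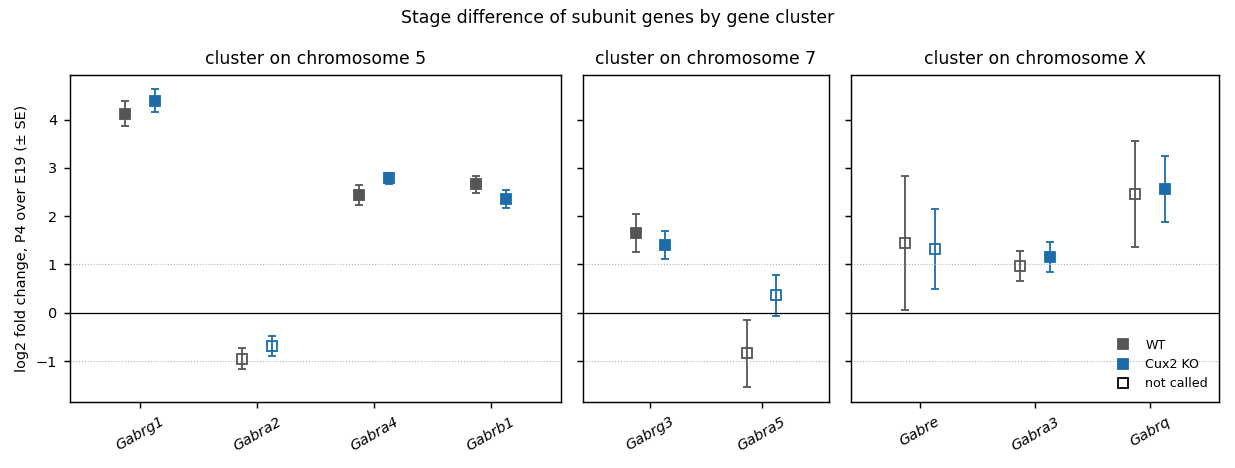
log2 fold change of P4 over E19 (± SE) of subunit genes by cluster, for WT (grey) and Cux2 KO (blue) neurons, with open squares for genes not called and dotted lines at the fold threshold of 1. On chromosome 5 Gabra2 lies below 0 between genes that lie above 2.

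In WT neurons 3 of the 9 other GABA-A subunit genes tested, of 14 listed, rose and 2 fell between E19 and P4, with a median log2 difference of 1.45. In this comparison 22.6% of all genes were called higher and 23.7% lower, and the counts of this and the other gene lists were not tested against these shares. Those that rose were Gabrg1, Gabrb1 and Gabrg3. In Cux2 KO neurons 4 of 9 rose and 1 fell.

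Of the 5 other cation-chloride cotransporter genes tested, of 7 listed, 3 fell and none rose in WT neurons (median log2 difference -1.15), among them Slc12a7, for KCC4, and Slc12a9. Of the 10 kinases and chloride regulators 5 fell and none rose (median -0.87). Wnk2, a kinase of the family that controls NKCC1 and KCC2 through phosphorylation, fell from a mean of 252 to 12.8 CPM (log2 difference -4.32 ± 0.118, adjusted p = 3.11e-12). Clcn2, a chloride channel gene, fell from 47.6 to 6.44 CPM (-2.89 ± 0.313, adjusted p = 1.06e-06). In Cux2 KO neurons 3 of 5 cotransporter genes fell and 1 rose (Slc12a8), and 5 of 10 regulators fell and 1 rose (Clcn3).

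Of 10 genes of the inhibitory postsynapse 5 fell and 2 rose in WT neurons (median log2 difference -1.42). Iqsec3, a gephyrin partner, fell from a mean of 20.1 to 0.393 CPM (-5.84 ± 0.871, adjusted p = 2.81e-05). Shisa7, a GABA-A receptor auxiliary protein, fell from 98.6 to 5.53 CPM (-4.16 ± 0.196, adjusted p = 2.28e-10), and Nlgn2, the neuroligin of inhibitory synapses, from 341 to 51.7 CPM (-2.75 ± 0.166, adjusted p = 2.46e-09). Slitrk3, another adhesion protein of inhibitory synapses, rose from 10.2 to 27.8 CPM (1.4 ± 0.181, adjusted p = 6.36e-06). Of 8 genes of GABA synthesis, transport and GABA-B receptors 3 fell and 2 rose (median 0.06). Slc32a1, the vesicular GABA transporter of interneurons, fell from 12.1 to 1.37 CPM (-3.28 ± 0.417, adjusted p = 5.56e-06). Abat, for GABA transaminase, rose from 44.6 to 142 CPM (1.64 ± 0.17, adjusted p = 6.8e-07). Between P4 and P7, 1 gene of these 5 lists was called, Gabbr2, for a GABA-B receptor subunit, from 12.4 to 44 CPM (1.85 ± 0.356, adjusted p = 0.0165).

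The Slc12a5 to Slc12a2 ratio, taken within each library as the log2 ratio of counts with 0.5 added to each, was lower after birth in both genotypes with several libraries per stage. Slc12a5 counts were 5.86% to 20.4% of Slc12a2 counts in the 8 WT libraries at E19 (median 9.93%) and 0% to 5.87% in the 6 at P4 (median 1.64%). The mean log2 ratio was -3.24 ± 0.66 (SD) at E19 and -7.78 ± 3.82 at P4, a difference of -4.54 (exact permutation test within sex, two-sided, p = 0.00163, adjusted p over the 11 ratio tests = 0.00898). The highest WT library of P4, at 5.87%, lay just above the lowest of E19, at 5.86%. In Cux2 KO libraries the share was 7.29% to 21.6% at E19 and 0% to 6.94% at P4, without overlap, and the mean log2 ratio was -2.74 ± 0.46 at E19 and -6.84 ± 2.97 at P4 (difference -4.10, exact permutation p = 0.000816, the smallest this design allows, adjusted p = 0.00898). The size of both differences depends on the libraries with 0 counts of Slc12a5. With medians in place of means the WT difference was -2.58 (adjusted p = 0.0539 in the exact permutation test).

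At P7 the WT share was 0.581% to 5.24%, and the mean log2 ratio of -5.69 ± 1.46 did not differ from P4 in the exact permutation test (difference 2.10, p = 0.31, adjusted p = 0.426). Slc12a2 counts exceeded Slc12a5 counts in all 43 libraries, per length by 6.18-fold at the mean log2 ratio of WT neurons at E19 and by 33.7-fold at P7.

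**Figure D4:**
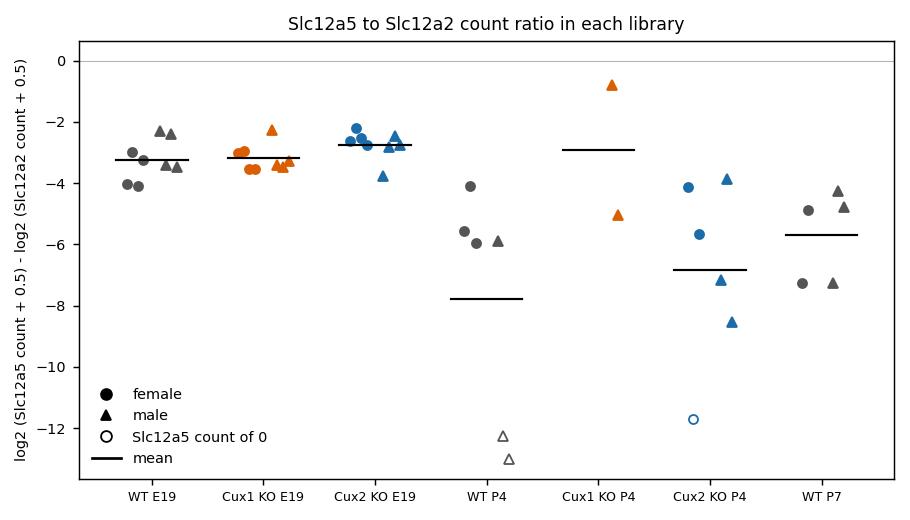
log2 of the Slc12a5 count over the Slc12a2 count (0.5 added to each) in every library by genotype and stage, with circles for females, triangles for males, open symbols for libraries without a Slc12a5 count and a line at the mean. The 24 libraries of E19 lie between -4.08 and -2.21 and the 19 later ones between -13.00 and -0.80.

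Whether the deletion of Cux1 or Cux2 altered these genes was asked at E19 within each sex. None of the 6 members tested was called by edgeR in any of the 4 comparisons, and none by DESeq2. All genes were called at 0.0576% in Cux1 KO females, 0.0979% in Cux1 KO males, 0.0287% in Cux2 KO females and 0.121% in Cux2 KO males. At an unadjusted p under 0.05 the members numbered 2, 2, 3 and 0 in that order. All genes at this cutoff numbered 1194 of 17376, 1798 of 17362, 806 of 17436 and 1376 of 17332. The test of a difference between the sexes also called none (0 members for either KO, smallest adjusted p 0.962 for Cux1 KO and 0.979 for Cux2 KO, with 1 member each at an unadjusted p under 0.05 and none by DESeq2, against 0% of all genes). All genes at an unadjusted p under 0.05 numbered 697 of 18318 for Cux1 KO and 694 of 18356 for Cux2 KO.

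In Cux1 KO neurons at E19 5 of the 6 log2 differences of Gabra2, Gabra3 and Gabra5 from WT were negative over both sexes, and none passed. Gabra5 in males was at 6.79, 2.81, 3.13 and 3.31 CPM in the KO and 7.83, 8.22, 15.5 and 3.34 in WT, so all but 1 KO library lay below every WT library (log2 difference -1.14 ± 0.405, adjusted p = 0.355). Gabra3 in males was at 12.8, 6.05, 5.76 and 8.34 CPM in the KO and 16.6, 7.28, 20.5 and 9.89 in WT (-0.74 ± 0.325, adjusted p = 0.464). Gabra2 in females was at 61.9, 50.8, 70.4 and 65.8 CPM in the KO and 76.6, 108, 66.5 and 73.3 in WT (-0.39 ± 0.144, adjusted p = 0.702). Gabra4 had positive differences in both sexes, 0.39 ± 0.156 in females (adjusted p = 0.706) and 0.38 ± 0.203 in males (adjusted p = 0.57). Slc12a2 and Slc12a5 overlapped WT in both sexes.

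In Cux2 KO neurons at E19, Slc12a5 in females was the only member whose libraries did not overlap between genotypes in the 4 comparisons, where 3.14% of all genes did not overlap. In the other 3 comparisons 3.37% (Cux1 KO females), 6.16% (Cux1 KO males) and 4.4% (Cux2 KO males) of all genes did not overlap. Its levels were 12.1, 15.1, 9.6 and 8.18 CPM in the KO and 4.17, 7.94, 3.34 and 7.57 in WT. The log2 difference of 0.97 ± 0.293 had an unadjusted p of 0.00564 and an adjusted p of 0.745. In males the levels overlapped, at 5.18, 9.01, 13.4 and 8.39 CPM in the KO and 13.7, 6.03, 10.5 and 5.91 in WT (-0.04 ± 0.321, adjusted p = 0.985). Gabra3 in females was at 10.9, 16.7, 11 and 13.8 CPM in the KO and 6.84, 7.69, 3.98 and 12 in WT (0.78 ± 0.28, adjusted p = 0.924), with overlap.

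At P4 no member passed between Cux2 KO and WT neurons. None of the 6 members tested was called in females or males (0 by edgeR and by DESeq2, with 1 member in females and 0 in males at an unadjusted p under 0.05, against 0% of all genes called by edgeR in each sex). All genes at an unadjusted p under 0.05 numbered 1443 of 19538 in females and 1136 of 19720 in males. Gabra4 in females was at 92.9, 91.5 and 83.3 CPM in the KO and 58.7, 60.2 and 40.9 in WT, without overlap, as were 15.7% of all genes. The log2 difference was 0.76 ± 0.173 (edgeR unadjusted p = 0.00354, adjusted p = 0.486). Over the 8 other settings of edgeR and DESeq2 it lay between 0.49 and 0.78, under the fold threshold of 1. The adjusted p of these tests ran from 0.00896 to 0.983, so under some settings the fold threshold alone kept Gabra4 from being called. In males Gabra4 was at 74.6, 105 and 70.4 CPM in the KO and 83.8, 41.2 and 98.3 in WT (0.21 ± 0.331, adjusted p = 0.999). The test of a difference of the Cux2 KO effect between the sexes at P4 called no member (0 of 6 by edgeR and by DESeq2, none at an unadjusted p under 0.05, smallest adjusted p 0.682, against 0% of all genes).

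The 2 Cux1 KO libraries of P4 stood apart from WT and Cux2 KO males of P4 in Slc12a2 and Gabra5, and from WT males alone in Gabra3. Against WT males none of the 6 members tested was called by edgeR, and 2 had an unadjusted p under 0.05. Of all genes 0% were called (smallest adjusted p 0.0764), and 4021 of 19601 had an unadjusted p under 0.05. The libraries of 3 members did not overlap between the groups, where 41.4% of all genes did not overlap. DESeq2 with its prior called 1 member, Slc12a2, and 8.34% of all genes. The median log2 difference over all genes was -0.18 in this comparison, and 0.7 over the members.

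Slc12a2 was at 12.8 and 8.59 CPM in the Cux1 KO libraries, at 41.8, 63 and 63.9 in WT males and at 46.2, 44.8 and 39 in Cux2 KO males. Both Cux1 KO libraries lay below every other library of the series. Between Cux1 KO and Cux2 KO males 45.4% of all genes did not overlap. The log2 difference from WT males was -2.4 ± 0.373 (edgeR adjusted p = 0.0764). It was -2.22 with DESeq2 and its prior (adjusted p = 3.86e-08) and -2.39 with all groups of P4 in 1 fit (adjusted p = 0.000438), and both called it. Against Cux2 KO males Slc12a2 was lower (-2.06 ± 0.31, adjusted p = 0.0491).

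Gabra5 was at 91.4 and 58.3 CPM in the Cux1 KO libraries of P4, at 9.91, 0.026 and 8.54 in WT males and at 9.2, 15.8 and 10.7 in Cux2 KO males. The Cux1 KO libraries lay above all others of the series, of which the highest stood at 19 CPM. The log2 difference from WT males was 3.6 ± 1.66 (adjusted p = 0.308), and 3.05 ± 0.423 (adjusted p = 0.19) without WT male replicate 2, which held 1 count. The difference from Cux2 KO males was 2.62 ± 0.358 (adjusted p = 0.0491). Gabra3 was at 51.2 and 41.1 CPM in the Cux1 KO libraries and at 29.6, 19.7 and 13.3 in WT males (1.12 ± 0.434, adjusted p = 0.241), while Cux2 KO males, at 28, 61.8 and 15.3, overlapped them.

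Gabra2, at 37 and 38.7 CPM, and Gabra4, at 97.6 and 83.9, lay within or near the range of WT males in the Cux1 KO libraries. Slc12a5 differed between the Cux1 KO libraries themselves, at 7.34 and 0.247 CPM, and did not pass against WT males at 0.702, 0 and 0 CPM (3.99 ± 2.83, adjusted p = 0.486). The count of Slc12a5 was accordingly 57.4% of that of Slc12a2 in replicate 1 and 2.87% in replicate 2. With 2 libraries against 3 the exact permutation test of the log2 ratio cannot give a p under 0.1, and gave 0.2 against WT males (difference 7.45, adjusted p = 0.367, with 5.44 to 9.32 over the other settings and 5.32 to 9.69 without 1 library) and 0.3 against Cux2 KO males (difference 3.59, adjusted p = 0.426).

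Directly between Cux1 KO and Cux2 KO males at P4, 2 of 6 members were called, Gabra5 higher and Slc12a2 lower in Cux1 KO neurons, where 2.98% of all genes were called (0.745% higher and 2.24% lower) and the median over all genes was -0.16. Neither comparison with WT nor that between the KO groups can separate the allele from CRE. Several marker lists of other cell types were lower in the Cux1 KO libraries than in WT and Cux2 KO males, and others were not. Summed levels were 0.0494 to 0.051 CPM for ependymal and choroid plexus markers (15.2 to 42.3 in WT and 74.5 to 136 in Cux2 KO males), 15.4 to 75.6 for mural cell markers (264 to 419 and 213 to 512), 68.6 to 146 for interneuron markers (250 to 421 and 178 to 450) and 1180 to 1260 for oligodendrocyte lineage markers (2140 to 3030 and 1720 to 2760). Upper-layer excitatory markers were at 1090 to 1270 CPM (905 to 971 and 722 to 917) and astrocyte and radial glia markers at 5000 to 6660 (4240 to 5300 and 4170 to 7500). The 5 leptomeningeal markers summed to 460 to 534 (462 to 894 and 444 to 743), with Col1a1 and Dcn at 0 in both Cux1 KO libraries. In WT at P7 this list summed to 247 to 942 CPM, while Col1a1, Col1a2, Dcn and Lum reached at most 2.72, 21.9, 0 and 1.09. The sum thus rested there mostly on 1 other gene. It does not show that leptomeningeal markers in general were kept in the Cux1 KO libraries. The Cux1 KO libraries held counts of 17049 and 19115 genes, the fewest of the 43 libraries, of which the next lowest held 20844. Their mitochondrially encoded genes summed to 1230 and 254 CPM (409 to 1610 in WT and 643 to 3180 in Cux2 KO males). Foxj1, of ciliated ependymal cells, was at 0 in both Cux1 KO libraries. The part of these levels and gene numbers in the differences of Slc12a2 and Gabra5 was not tested. Both calls were lost without each of the 3 Cux2 KO libraries in turn (adjusted p from 0.103 to 0.135), with no filter on low counts (Gabra5 adjusted p = 0.0559, Slc12a2 0.0606), and with the replicate number as a block (0.506 for both).

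**Figure D5:**
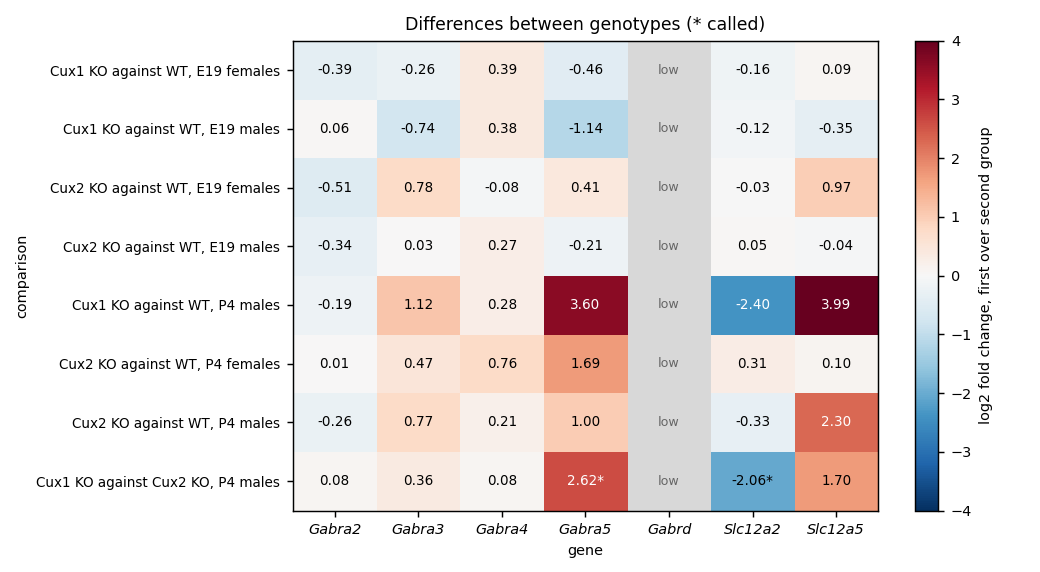
log2 fold change of each member in every comparison between genotypes (colour and number, first group over second), with * for called genes and grey for Gabrd, which did not pass the filter on low counts. The called differences, 2.62 for Gabra5 and -2.06 for Slc12a2, are both between Cux1 KO and Cux2 KO males at P4.

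Sex made no called difference in the members in WT neurons at any stage (0 of 6 by edgeR and by DESeq2 at E19, P4 and P7, with 1, 0 and 0 members at an unadjusted p under 0.05, against 0.0461%, 0% and 0.0247% of all genes called). All genes at an unadjusted p under 0.05 numbered 637 of 17344, 1398 of 19213 and 883 of 20271. At E19 Gabra3 was at 6.84, 7.69, 3.98 and 12 CPM in females and 16.6, 7.28, 20.5 and 9.89 in males (-0.84 ± 0.344, adjusted p = 0.992). At P4 Slc12a5 was at 0.929, 2.01 and 0.84 CPM in females and 0.702, 0 and 0 in males, without overlap, as were 14.9% of all genes (2.43 ± 2, adjusted p = 0.856). The log2 Slc12a5 to Slc12a2 ratio was lower in females at E19 (-0.68) and higher at P4 (5.18), and neither passed in the exact permutation test (p = 0.171 and 0.2, adjusted p = 0.367 for both, with 0.1 the smallest p possible at P4). The P4 value rests on 2 WT male libraries with 0 counts of Slc12a5 and ranged from 3.11 to 6.68 over the other settings and from 3.87 to 7.43 without 1 library. Against WT, with sexes kept apart in the permutations, the ratio differed by 0.06 in Cux1 KO neurons at E19 (exact permutation p = 0.853), by 0.50 in Cux2 KO neurons at E19 (p = 0.116, adjusted p = 0.367) and by 0.94 in Cux2 KO neurons at P4 (p = 0.66, adjusted p = 0.726).

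The genes whose log2 CPM followed the members most closely over the 43 libraries were found among 11505 protein-coding genes with a mean of at least 5 CPM. Gabra4 had the closest, Pttg1ip (Pearson r = 0.98) and Tmed5 (0.978), followed by Slc12a2 with Phka2 (0.944) and Cdc25b (0.933) and Slc12a5 with Slc27a3 (0.896) and Slc38a10 (0.894). For the others the best matches were Vsnl1 (0.856) and Ntm (0.848) for Gabra3, Scn3b (0.84) and Nell2 (0.83) for Gabrd, Golga3 (0.822) and Cog6 (0.802) for Gabra2, and Vstm2l (0.806) and Klhl4 (0.794) for Gabra5. The libraries share stage, sequencing round and genotype in groups, and the part of each in these values was not tested. Within the 24 libraries of E19, which share stage and round, Gabra3 followed Slc12a5 (r = 0.795), Gabra5 (0.79) and Gabrd (0.762), while its r with Slc12a2 was 0.0727 and with Gabra2 -0.338.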

How the data were processed

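The authors sorted GFP+ cells, prepared low-input libraries from total RNA, used HISAT2 to align single-end reads to GRCm39 (with Y sequence masked in females), removed duplicated reads and counted reads per Ensembl gene with featureCounts (strand setting not given in the sources used here). The deposited table holds raw read counts, whole numbers without normalization, for 56980 genes in 43 libraries, all of which were used. Molecular identifiers are not mentioned in the sources used here, so floors cover counting error only, and a count of 0 allows up to 3 counts. Libraries were grouped by genotype, stage and sex as labelled. Exon lengths and positions came from GENCODE M39 (GRCm39), which held 56236 of the identifiers, and promoters from RefSeq (GRCm38.p6), in which 5 of the 7 members were matched and Gabrd and Slc12a2 were not.

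Each comparison was fitted over all genes with edgeR 4.0.16 (R 4.3.3), TMM normalization, filterByExpr and the quasi-likelihood test on the libraries of its groups alone, and interactions were called on the adjusted p alone. The fits were tested on simulated data. Log2 CPM for correlations used a prior count of 2. Ratios were tested with exact permutations, adjusted over 11 tests. Labels were permuted within sex where both groups held both sexes, and otherwise over all libraries compared. Alternatives were DESeq2 1.42.0 (Wald test with and without its prior), DESeq2 size factors in edgeR, no filter, no fold threshold, all groups of a stage or both sexes in 1 fit, a replicate block, a ratio pseudocount of 5, medians, and leaving out each library in turn. The members, gene lists and tests were chosen with earlier results of these data known.

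No replicates were identical or alike within sampling noise (lowest chi-square per degree of freedom 7.79). Replicate numbers have no stated meaning as pairs and were not used to pair libraries in the main tests. Named genes were the members, the called list genes of largest change (at most 6 per direction and comparison), 2 genes of most similar pattern per member, and Cux1 and Cux2. The cluster neighbours, Slc12a7, Slc12a8, Slc12a9, Clcn3 and the markers given with values were named after their values were seen. Some genes that this rule also names are not reported here.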

Additional observations from a re-analysis of the deposited data

Results flagged for a closer look

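Each group of 4 libraries at E19 was checked for a single library far from the other 3, by the share of the group's range that separates it from its nearest neighbour. Of 48 such checks over the members and the ratio, 4 passed the 95% limit, and chance alone gives about 1 in 20 groups. Gabra3 stood at 9.62 CPM in Cux1 KO female replicate 2 of E19, against 5.21 to 5.43 in the other 3 (share 0.95). Gabra5 stood at 6.79 CPM in Cux1 KO male replicate 1 of E19, against 2.81 to 3.31 (0.874), and the log2 Slc12a5 to Slc12a2 ratio of the same library was the highest of its group at -2.27 (0.849). Gabra5 stood at 8.31 CPM in Cux2 KO female replicate 2 of E19, against 7.07 to 7.24 (0.863). No edgeR comparison of these groups with WT at E19 called a member, with or without these libraries.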

How the results depend on the processing

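No called value changed sign under any alternative. Of 1155 values computed without 1 library, 1138 kept their side of the threshold, and of 716 under other settings 701 did. Most of these values belong to members that were not called, so the counts say little about the calls. Among values not called 80 changed sign without 1 library and 14 under other settings. Fits in which a gene did not pass the filter on low counts, as for Gabrd, are not counted. Against WT males of P4, Cux1 KO neurons had 0 called members, but 1 (Slc12a2) with DESeq2 with its prior, without shrinkage, and with all groups of P4 in 1 fit. Between Cux1 KO and Cux2 KO males of P4 the 2 called members became 0 with no filter, 0 with the replicate block, 1 (Slc12a2) with all groups in 1 fit, and 0 to 2 without 1 library (0 without each Cux2 KO library). Between E19 and P4 in WT neurons the 2 called members became 5 with no fold threshold (all tested but Gabra5), 4 with no filter (Gabra3 and Gabrd added), 4 with the replicate block (Gabra2 and Gabrd added), and 2 to 4 without 1 library (4 without WT P4 male replicate 3, with Gabra2 and Gabra3 added). In Cux2 KO neurons 4 members were called and 3 to 4 without 1 library. The ratio difference in WT neurons of -4.54 was -2.58 with medians (exact permutation, adjusted p = 0.0539), -4.58 with the replicate block (adjusted p = 0.172) and -5.28 to -3.50 without 1 library, and that in Cux2 KO neurons of -4.10 was -4.11 with the block (adjusted p = 0.172). In the block of the ratio the signs of differences between same-numbered libraries were flipped. With so few pairs, 0.172 was the lowest adjusted p that this test could give beside the other ratio tests. It could not pass at 0.05 and decides nothing about the ratio differences. The cause of the other shifts was not tested. The replicate numbers share no stated source. Within stages, the mean correlation between deviations of same-numbered libraries lay between -0.0927 and 0.316, with no comparison of 3 or more pairs over 0.1 in each pair. The highest mean was that of the WT sexes at P7, with 2 pairs at 0.26 and 0.372. Comparisons between stages were not checked for pairing, and why the block gave higher p-values in edgeR was not tested.

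Counts over all genes moved by over 1.5 times as follows, in the order Cux1 KO females, Cux1 KO males, Cux2 KO females and Cux2 KO males at E19, where 10, 17, 5 and 21 genes were called. DESeq2 with its prior called 29, 73, 22 and 66, without shrinkage 47, 113, 30 and 93, and no filter gave 63, 91, 46 and 63. Both sexes in 1 fit gave 43 and 43 for Cux1 KO and 18 for Cux2 KO females. The block gave 45 and 10 in the males, and all groups in 1 fit gave 5 in Cux1 KO males and 8 in Cux2 KO females. At P4, where edgeR called 0 against WT, DESeq2 with its prior and without shrinkage called 2273 and 3242 for Cux1 KO males, 42 and 179 for Cux2 KO females and 75 and 362 for Cux2 KO males. All groups in 1 fit gave 2597, 1 and 4 for these, and both sexes in 1 fit 11 for Cux2 KO. Leaving out Cux1 KO replicate 2 gave 639 in Cux1 KO males. The 589 genes between the KO groups became 2617 and 3370 with DESeq2, 2021 with all groups in 1 fit, 0 with no filter or the block, 0 without each Cux2 KO library and 1821 and 3351 without each Cux1 KO library. For WT sexes 8 at E19 became 13 without shrinkage, 0 at P4 became 85 and 238 with DESeq2, 5 with no filter and 7 with all groups in 1 fit, and 5 at P7 became 12 and 75 with DESeq2 and 0 with the block. Between P4 and P7 480 became 1187 without shrinkage and 1333 with no fold threshold, and 9148 between stages in Cux2 KO neurons became 13925 with no fold threshold. For interactions, 0 for Cux2 KO by sex at P4 became 284 with DESeq2, and 39 for Cux2 KO by stage became 177 with DESeq2 and 25 with the block. Without 1 library the counts at E19 ran from 2 to 30 in Cux1 KO females, from 0 to 16 in Cux1 KO males (0 without Cux1 KO replicate 4 or WT replicate 2 or 3), from 3 to 14 in Cux2 KO females and from 9 to 19 in Cux2 KO males. They ran from 0 to 3 between WT sexes at P7, from 239 to 519 between P4 and P7, and from 27 to 76 for Cux2 KO by stage. Depth limits Gabrd at every stage and Slc12a5 after birth, where few counts stand behind each level.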
